A study of Mus musculus with 88 samples.

Results

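Myelin is the spiralled membrane that oligodendrocytes (OLGs) wrap around axons of the central nervous system, and a small set of proteins gives it its structure. The 9 genes described here encode such proteins: Mbp, Mobp, Mag, Mog, Cnp, Cldn11, Mal, Opalin and Ermn. They were found by matching Ensembl identifiers to gene symbols, and all 9 were present among the 18946 genes of the medial prefrontal cortex (mPFC) table, the 48795 genes of the bed nucleus of the stria terminalis (BNST) table and the 19559 genes of the ventral hippocampus (vHPC) table. The choice of genes used no measured value.

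RNA-seq was available for 88 libraries, each from 1 brain region of 1 male mouse aged 8 weeks at dissection, of the inbred strains labelled C57BL/6Crl (B6) or DBA/2Crl (D2), with no transgene or other engineered allele given. The study's methods write these strains as C57BL/6NCrl and DBA/2NCrl. Mice were either undefeated controls or had gone through chronic social defeat stress (CSDS), repeated daily defeats by an aggressive CD1 male, and defeated mice were then classed as resilient or susceptible by how much they avoided an unfamiliar CD1 mouse. In the last week or so before brains were taken, controls and defeated mice alike were housed alone. In the mPFC there were 6 B6 controls, 6 resilient B6, 6 susceptible B6, 6 D2 controls and 8 susceptible D2. In the BNST each B6 phenotype had 5 mice, with 5 D2 controls, 3 resilient D2 and 5 susceptible D2. In the vHPC there were 6 B6 controls, 8 resilient B6, 3 susceptible B6, 6 D2 controls and 5 susceptible D2. Samples of a group are separate mice, and 7 animals contributed to both the mPFC and the vHPC data.

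In compact myelin the cytoplasmic faces of the membrane are held together by myelin basic protein (Mbp), with Mobp, a smaller basic protein, at the same face, while claudin 11 (Cldn11) forms the tight junctions between the layers and Mal is a raft-associated proteolipid of myelin membrane sorting. Mag is an adhesion molecule of the innermost layer facing the axon, and Mog an immunoglobulin-fold protein of the outermost surface. Cnp, a cyclic nucleotide phosphodiesterase, lies in the cytoplasm-filled channels of myelin, Opalin is an OLG transmembrane glycoprotein and ermin (Ermn) is an actin-binding protein of late OLGs. These transcripts appear when an OLG precursor matures, and transcription factors such as MYRF and SOX10 are known to switch on many of them.

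Promoters of these genes were read from RefSeq (build GRCm38.p6), 250 bases before the start site on the strand of the gene, and a window was matched for 8 of the 9 genes. Each was searched on both strands for the MYRF letters CTGGCAC or CTGGTAC, for the SOX letters ACAAAG or ACAATG and for the E-box CAGCTG, letter sets that do not overlap each other in the windows printed here. Cnp (chr11:100574689-100574938, + strand), Mag (chr7:30914864-30915113, − strand) and Mog (chr17:37023399-37023648, − strand) are printed because they were the 3 windows with the MYRF letters, and Mobp (chr9:120149492-120149741, + strand) because it held the SOX letters 6 times. Capitals mark the matches, read on either strand.
Cnp: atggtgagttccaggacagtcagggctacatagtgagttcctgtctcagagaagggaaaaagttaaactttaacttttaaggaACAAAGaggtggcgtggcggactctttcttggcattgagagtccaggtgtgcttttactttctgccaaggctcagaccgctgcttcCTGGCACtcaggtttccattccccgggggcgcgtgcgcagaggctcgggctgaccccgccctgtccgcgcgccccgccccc
Mag: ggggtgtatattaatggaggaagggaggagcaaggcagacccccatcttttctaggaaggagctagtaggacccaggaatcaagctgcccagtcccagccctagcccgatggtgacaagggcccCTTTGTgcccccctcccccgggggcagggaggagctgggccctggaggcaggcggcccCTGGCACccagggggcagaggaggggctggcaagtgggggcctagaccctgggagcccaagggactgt
Mog: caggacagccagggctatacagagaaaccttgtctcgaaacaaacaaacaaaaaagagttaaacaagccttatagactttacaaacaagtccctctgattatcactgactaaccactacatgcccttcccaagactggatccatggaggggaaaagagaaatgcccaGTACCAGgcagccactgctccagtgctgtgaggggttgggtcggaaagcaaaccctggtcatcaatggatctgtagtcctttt
Mobp: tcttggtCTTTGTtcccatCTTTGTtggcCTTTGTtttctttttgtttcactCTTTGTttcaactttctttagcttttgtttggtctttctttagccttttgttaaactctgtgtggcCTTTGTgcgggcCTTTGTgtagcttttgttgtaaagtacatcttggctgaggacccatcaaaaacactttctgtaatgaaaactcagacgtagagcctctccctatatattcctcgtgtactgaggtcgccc
The MYRF letters lay 81 bases before the start in Cnp, 68 in Mag and 83 in Mog, and 5.93% of all 32851 windows of this length held them. The SOX letters were in 5 of the 8 windows, those of Cnp, Ermn, Mag, Mobp and Opalin, and in 25.2% of all windows. No window of these genes held the E-box, which 13.0% of all windows held. A match is a run of letters and was not tested as a binding site.

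Levels are given as log2 CPM (reads of a gene relative to the library total), so a difference of 1 is a doubling. The mPFC and vHPC values were deposited on this scale, already adjusted for library batches, and the BNST values were computed from deposited counts, with library totals of 11825757 to 25793910 reads. In the BNST the genes rested on 183 to 800 reads per library for Opalin, the lowest, and on 10410 to 74939 for Mbp, the highest. A gene was called different when its p adjusted over all genes of the region (Benjamini-Hochberg, from limma in the mPFC and vHPC and from edgeR's quasi-likelihood test in the BNST) was under 0.05. The markers of excitatory cortical and hippocampal neurons summed to 332 to 682 CPM in mPFC and 743 to 1020 CPM in vHPC libraries, but ranged from 11.7 to 854 CPM among BNST libraries. Schwann cells, the myelin-forming cells of peripheral nerve, share several of the 9 genes. Of 4 Schwann cell markers, none was in the mPFC table, 2 summed to 0.891 to 3.52 CPM among the BNST genes tested and 1 reached 2.56 to 6.7 CPM in the vHPC.

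To compare the genes with each other, levels were divided by the joint length of all annotated exons of a gene (8469 bases for Mbp), which can exceed that of a single transcript. Spread here is the SD across mice. It leaves out that the genes were measured in the same libraries, so the order is a description and was not tested. In the mPFC of B6 controls Mbp (84.7 CPM per kb of exon), Mobp (78.9) and Mal (75.7) were highest and did not differ from each other by more than their spread. They were followed by Cnp (32.0), Cldn11 (26.0) and Ermn (21.6), and then by Mag (14.9), Mog (12.0) and Opalin (8.16), and the steps after Mal, Ermn and Mog exceeded the larger SD of the neighbouring genes. In the BNST of B6 controls Mbp (221 CPM per kb) stood above Mobp (92.2), Cldn11 (86.8), Cnp (80.3) and Mal (77.4), these last 4 within their spread of each other, and Mag (48.7), Mog (27.0), Ermn (20.8) and Opalin (8.04) followed. In the vHPC of B6 controls the order was Mbp (130 CPM per kb), Mal (103), Mobp (98.3), Cnp (69.0), Cldn11 (67.7), Mag (51.1), Ermn (15.7), Mog (12.6) and Opalin (6.83), and only Mal and Mobp, and Cnp and Cldn11, were closer than their spread. Mbp headed and Opalin closed the order in each region. The regions were prepared with different library kits and normalized separately, so levels were not tested between them.

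**Figure D1:**
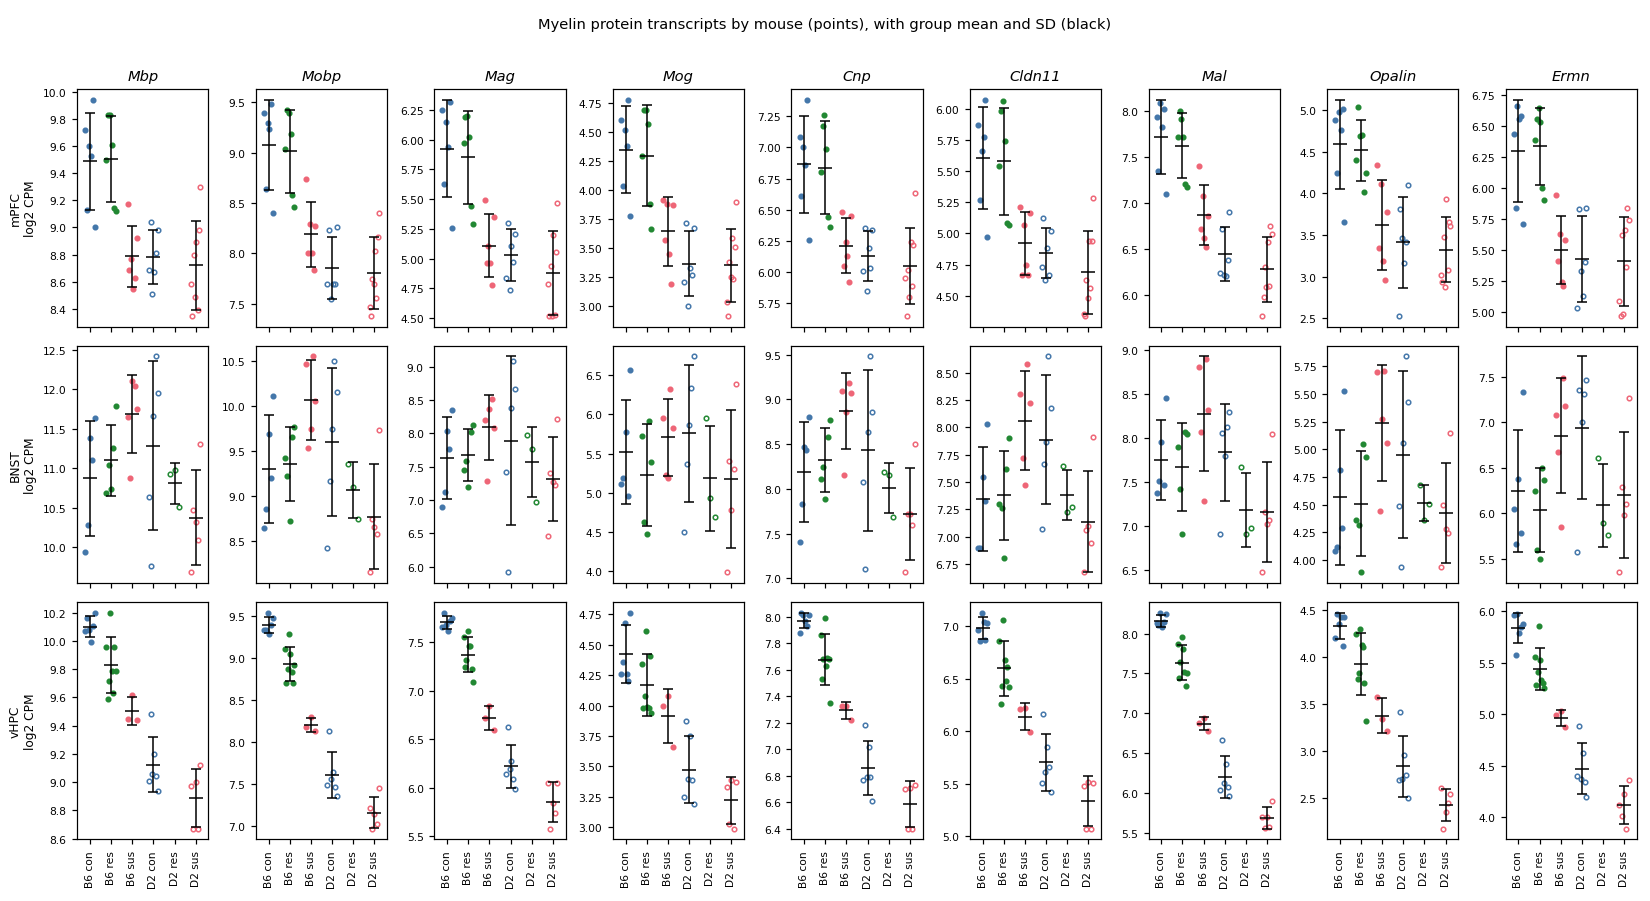
Log2 CPM of the 9 genes (columns) in the mPFC, BNST and vHPC (rows), 1 point per mouse, by strain (filled B6, open D2) and phenotype (con control, res resilient, sus susceptible), with bars for the group mean and SD. In the mPFC the B6 susceptible points sit near the D2 points, in the BNST the groups compared overlap for every gene, and in the vHPC levels step down from B6 control to B6 resilient, B6 susceptible and D2 mice.

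In the mPFC, the myelin protein transcripts were lower in susceptible than in control B6 mice. Mbp lay between 9.0 and 9.94 log2 CPM in the 6 controls (median 9.56) and between 8.55 and 9.17 in the 6 susceptible mice (median 8.73), a difference of −0.70 (SE 0.17, adjusted p = 0.0278). Mobp was at 8.40 to 9.49 log2 CPM in controls (median 9.27) and at 7.83 to 8.74 in susceptible mice (mean 8.19, SD 0.32), a difference of −0.89 (SE 0.21, adjusted p = 0.0269). In both genes the groups overlapped, because the lowest control lay below the highest susceptible mouse.

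The same held for the other genes, with groups that overlapped in all 9. Mal differed by −0.85 (SE 0.20, adjusted p = 0.0266), Mag by −0.82 (SE 0.19, adjusted p = 0.0266), Ermn by −0.79 (SE 0.19, adjusted p = 0.0313), Mog by −0.70 (SE 0.19, adjusted p = 0.0477) and Cnp by −0.66 (SE 0.17, adjusted p = 0.0427) on the log2 scale. Opalin had the lowest estimate, −0.97 (SE 0.27, adjusted p = 0.0491), with controls at 3.66 to 5.01 log2 CPM (median 4.82) and susceptible mice at 2.96 to 4.34 (median 3.56). Cldn11 was at −0.68 (SE 0.19), with an adjusted p of 0.0521 that missed the threshold. In all, 8 of the 9 genes were called lower and the median difference was −0.79, where 1.28% of all genes were called lower and the median over all genes was 0. In a bulk sample, fewer OLGs and less of a transcript per OLG cannot be told apart.

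Other genes of mature OLGs fell with them. Of 25 such genes 12 were called lower, the differences of all 25 were negative and their median was −0.53, with the gap junction genes Gjb1 at −0.81 (adjusted p = 0.0263) and Gjc3 at −0.53 (adjusted p = 0.0239), while Aspa (−0.50, adjusted p = 0.0733) was not called. OLG precursor genes had a median difference of −0.05, and 2 of 12 were called lower, Bcas1 (−0.75) and Enpp6 (−0.65), named here after their values were seen, which mark cells on the way to myelination. Astrocyte markers had a median of −0.10 and excitatory neuron markers of 0.20, with none called. The 6 markers of striatal neurons, a tissue that lies next to the mPFC, were all lower in susceptible B6 mice, with a median of −0.97 and 0 called by limma (5 at an unadjusted p under 0.05, as were 18.2% of all genes). Their summed level was 105 to 312 CPM in control, 126 to 331 in resilient and 69.9 to 152 in susceptible B6 mice. The part of these markers in the result was not tested.

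The position of single mice bears on this comparison. The B6 control with the lowest value of every one of the 9 genes was replicate 6, and the susceptible mouse with the highest value of all 9 was replicate 1. The IDs of the mice open with a letter and a number, whose meaning the sources used here do not give. Averaged over the 9 genes, the controls and resilient mice with C1 or C2 IDs were at 6.30 to 7.07 log2 CPM, the 2 resilient mice and 1 susceptible mouse with C5 IDs at 6.14 to 6.30, and the C7 mice, 5 susceptible and control replicate 6, at 5.52 to 6.03. Within C7 the susceptible mice differed from the single control by a median of −0.23, negative in 9 of 9 genes, and within C5 the susceptible mouse differed from the 2 resilient mice by 0.13. With the ID prefix in the model, no gene was called (0 by limma) and the median difference was −0.09, and few mice of different phenotypes shared a prefix. Within library preparation sets 1 to 4, each with 1 or 2 mice a group, all 9 differences were negative, with medians of −1.02, −0.81, −0.92 and −0.54, but 0 genes were called by limma with the library set in the model (median −0.78) and 0 in a fit of the groups compared alone (median −0.79). The count of genes called was 0 without control replicate 1, 3, 4 or 5 or susceptible replicate 2 or 5, 1 without susceptible replicate 6 and 6 to 9 without any other mouse of these groups, while the median difference stayed between −0.91 and −0.72.

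Resilient B6 mice were close to controls. Mbp was at 9.12 to 9.83 log2 CPM (median 9.56) in the 6 resilient mice, differing from controls by 0.02 (SE 0.17, interval −0.32 to 0.36), and Mobp differed by −0.06 (SE 0.21, interval −0.49 to 0.37). None of the 9 genes was called by limma, where 0% of all genes were called, none had an unadjusted p under 0.05, and the median difference was −0.05. Against resilient mice, susceptible B6 mice were lower in all 9 genes with a median of −0.74, and 5 were called: Mbp (−0.72, adjusted p = 0.0306), Ermn (−0.83, 0.0306), Mobp (−0.83, 0.0404), Mag (−0.74, 0.0422) and Mal (−0.75, 0.0435), where 2.02% of all genes were called in either direction. The groups overlapped for every gene, and this count was 0 with the ID prefix in the model (median −0.04). Within library sets 1 to 4 the medians were −0.09, 0.65, −0.76 and −0.36 for resilient against control mice and −1.03, −1.42, −0.18 and −0.18 for susceptible against resilient mice, and the 5 calls fell to 0 with the library set in the model and to 0 in a fit of the groups compared alone.

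In D2 mice no such difference was detected after CSDS. Mbp was at 8.51 to 9.04 log2 CPM (median 8.75) in the 6 D2 controls and at 8.35 to 9.30 (median 8.69) in the 8 susceptible D2 mice, a difference of −0.06 (SE 0.16, interval −0.37 to 0.26). The 9 differences ranged from −0.17 in Mal to −0.02 in Mog and Ermn, none was called by limma or had an unadjusted p under 0.05, and 0% of all genes were called. Within library sets 1 to 4 the medians were −0.40, −0.34, 0.26 and 0.12. The D2 change minus the B6 change was positive for all 9 genes, from 0.53 in Cldn11 to 0.88 in Opalin, but ran from −0.23 to 0.10 (median −0.05) with the ID prefix in the model, where 3 of 9 kept their sign. None passed the test of this interaction (0 called by limma, lowest adjusted p = 0.441 for Mobp and Ermn, with 0% of all genes called), so the strains were not shown to respond differently. At an unadjusted p under 0.05 were all 9, where 9.32% of all genes were.

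Undefeated D2 mice had less of all 9 transcripts in the mPFC than undefeated B6 mice. Mal was at 7.10 to 8.09 log2 CPM in B6 controls (median 7.88) and at 6.20 to 6.90 in D2 controls (median 6.31), a difference of −1.28 (SE 0.20, adjusted p = 8.65e-06). Mobp differed by −1.22 (SE 0.21, adjusted p = 4.23e-05), Opalin by −1.18, Mog by −0.98, Mag by −0.90, Ermn by −0.87, Cldn11 by −0.76, Cnp by −0.74 and Mbp by −0.71, with the highest adjusted p, 0.00287, in Cldn11. All 9 genes were called lower where 14.4% of all genes were, and control groups did not overlap for 3 of them, Mobp, Mog and Mal, where 11.7% of all genes did not overlap. All 9 differences were negative within each of library sets 1 to 4, with medians of −0.92, −0.32, −1.31 and −0.91. No ID prefix held mice of both strains, so prefix and strain cannot be told apart here. Averaged over the 9 genes, D2 controls with D10 IDs were at 5.44 to 6.01 log2 CPM and the D5 control at 6.04. The B6 control with a C7 ID was at 6.02, and those with C2 IDs were at 6.76 to 7.07. Of the 25 other mature OLG genes 21 were called lower and 1 higher (Car2, carbonic anhydrase 2, named after its value was seen), and the striatal markers were lower too (median −1.32, 2 of 6 called).

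**Figure D2:**
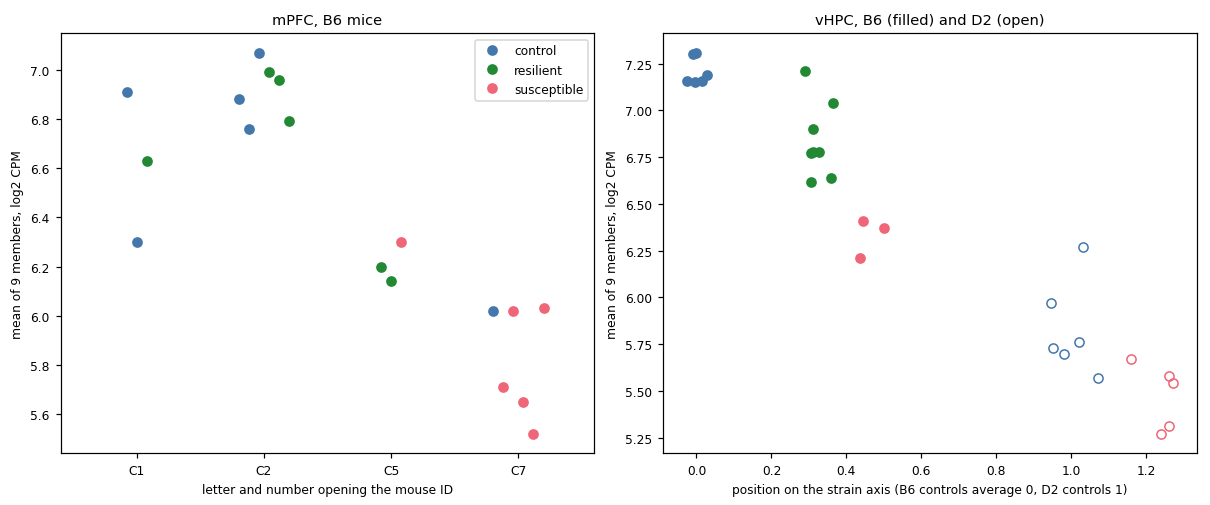
Mean log2 CPM of the 9 genes per mouse. Left, mPFC of B6 mice by the letter and number that open the mouse ID, where C7 mice lie at 5.52 to 6.03 and C2 mice at 6.76 to 7.07. Right, vHPC by position on the strain axis (0 the mean of B6 controls, 1 the mean of D2 controls), where B6 resilient mice lie at 0.289 to 0.364 and B6 susceptible mice at 0.437 to 0.499.

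In the BNST none of the 9 genes passed the edgeR test in any comparison, and the estimates pointed up in susceptible B6 mice and down in defeated D2 mice. Cldn11 was at 6.90, 6.90, 7.55, 7.33 and 8.03 log2 CPM in B6 controls 1 to 5 and at 8.31, 7.72, 7.47, 8.58 and 8.22 in susceptible B6 mice 1 to 5, a difference of 0.71 (SE 0.28, adjusted p = 0.709). Mobp was at 8.65, 8.86, 9.69, 9.20 and 10.11 log2 CPM in those controls and at 10.47, 9.53, 9.75, 10.55 and 10.06 in the susceptible mice, a difference of 0.72 (SE 0.33, adjusted p = 0.765). For both genes the groups overlapped, with controls at 7.55 and 8.03 for Cldn11 and at 9.69 and 10.11 for Mobp inside the range of the susceptible mice. The 9 estimates ranged from 0.12 in Mog to 0.74 in Mbp (median 0.63), 0 were called by edgeR (0% of all genes) and by DESeq2, and 2 had an unadjusted p under 0.05, Mobp and Cldn11. An unadjusted p under 0.05 was reached by 6.37% of all genes. The sign was positive for 9 of 9 genes with TMM scaling and for 8 without it, where the median was 0.37 and Mog was at −0.13. Of the 25 other mature OLG genes, all had a positive estimate (median 0.34) and 0 were called by edgeR, 1 at an unadjusted p under 0.05. Within library sets 1 and 2 the medians of the 9 genes were 0.57 and 0.68.

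Resilient B6 mice gave estimates on both sides of 0, from −0.31 in Mog to 0.15 in Mbp (median −0.01), with 0 called by edgeR or DESeq2, 0 at an unadjusted p under 0.05 and 0% of all genes called. Susceptible against resilient B6 mice gave positive estimates for all 9 genes, from 0.43 in Mag and Mog to 0.85 in Ermn (median 0.65). None was called by edgeR or DESeq2 (lowest adjusted p = 0.57 for Cldn11 in edgeR, with 0.00571% of all genes called). At an unadjusted p under 0.05 were 5, where 7.55% of all genes were. Excitatory neuron markers summed to 11.7 to 854 CPM in resilient and 12.3 to 46 CPM in susceptible B6 mice, and their median difference was −4.39, with 0 of 5 called and 5 of 5 at an unadjusted p under 0.05. Their part in the estimates was not tested. Within library sets 1 and 2 the medians of the 9 genes were 0.54 and 0.73 for susceptible against resilient mice and 0.04 and −0.01 for resilient against control mice.

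In D2 mice the estimates were negative. Cldn11 was at 7.07, 7.67, 7.87, 8.65 and 8.18 log2 CPM in D2 controls 1 to 5 and at 6.68, 7.06, 7.10, 6.94 and 7.91 in susceptible D2 mice 1 to 5, a difference of −0.78 (SE 0.28, adjusted p = 0.635). Mbp was at 10.64, 9.76, 11.66, 12.42 and 11.95 log2 CPM in the controls and at 9.68, 10.47, 10.32, 10.09 and 11.31 in the susceptible mice, a difference of −1.08 (SE 0.39, adjusted p = 0.635). D2 controls 4 and 5 lay above every susceptible mouse for both genes, and controls 1 and 2 lay among the susceptible mice. The 9 estimates ranged from −1.08 to −0.57 (median −0.78), 0 were called by edgeR (0% of all genes) or DESeq2, and 6 had an unadjusted p under 0.05. An unadjusted p under 0.05 was reached by 6.03% of all genes. The median was 0.03 within library set 1 and −1.37 within set 2, and it was −0.35 with the ID prefix in the model. The 25 other mature OLG genes were all at negative estimates (median −0.59), with 0 called by edgeR and 4 at an unadjusted p under 0.05. Thalamic neuron markers, from tissue behind the BNST, moved with these groups, at 108 to 1050 CPM in D2 controls and 72.4 to 196 CPM in susceptible D2 mice. Their median difference was −1.63 (0 of 5 called, 5 of 5 at an unadjusted p under 0.05), and their part in the estimates was not tested.

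The 3 resilient D2 mice lay inside the range of the susceptible ones, with Cldn11 at 7.65, 7.23 and 7.27 log2 CPM and Mbp at 10.93, 10.98 and 10.51. Their differences from D2 controls ranged from −0.94 in Ermn to −0.58 in Opalin (median −0.65), with 0 called by edgeR or DESeq2, 1 at an unadjusted p under 0.05 (Ermn) and 0% of all genes called. Of all genes 5.44% had an unadjusted p under 0.05. Their median was −0.10 within library set 1 and −1.38 within set 2 and −0.41 without D2 control replicate 4. The thalamic neuron markers were at 95.3 to 126 CPM in these mice (median difference from controls −2.13, 0 of 5 called, 5 of 5 at an unadjusted p under 0.05), with their part not tested. Between undefeated mice, D2 estimates were above B6 for all 9 genes, from 0.10 in Mal to 0.70 in Ermn (median 0.42), the opposite sign to the mPFC, and 0 were called by edgeR or DESeq2 (1 at an unadjusted p under 0.05, Cldn11) where 2.51% of all genes were called. In this comparison 13.4% of all genes had an unadjusted p under 0.05. No ID prefix held mice of both strains. The median was 0.04 within library set 1 and 0.79 within set 2, and it was 0.19 without D2 control replicate 4 and 0.72 without B6 control replicate 5. Without D2 control replicate 5 the lowest of the 9 estimates was −0.01. Thalamic neuron markers had positive estimates too (median 1.21, 0 of 5 called, 3 of 5 at an unadjusted p under 0.05), and their part was not tested. The difference between regions was not tested.

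The D2 change minus the B6 change in susceptible mice was the largest BNST estimate. It was −1.82 in Mbp (SE 0.55, interval −2.95 to −0.69), −1.62 in Mobp (SE 0.47), −1.48 in Cldn11 (SE 0.39), −1.47 in Cnp (SE 0.45) and −0.69 in Mog (SE 0.59), with a median of −1.31 over the 9 genes. The edgeR test called 0 genes (0% of all genes, lowest adjusted p = 0.115 for Cldn11). At an unadjusted p under 0.05 were 8 of the 9, where 11.4% of all genes were. DESeq2 called 3 of the 9, Cldn11 (adjusted p = 0.023), Mobp (0.0422) and Mbp (0.0453). The share of all genes that DESeq2 called is not given here, so this count has no background beside it. Without TMM scaling the median was −0.75 and no gene was called.

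**Figure D3:**
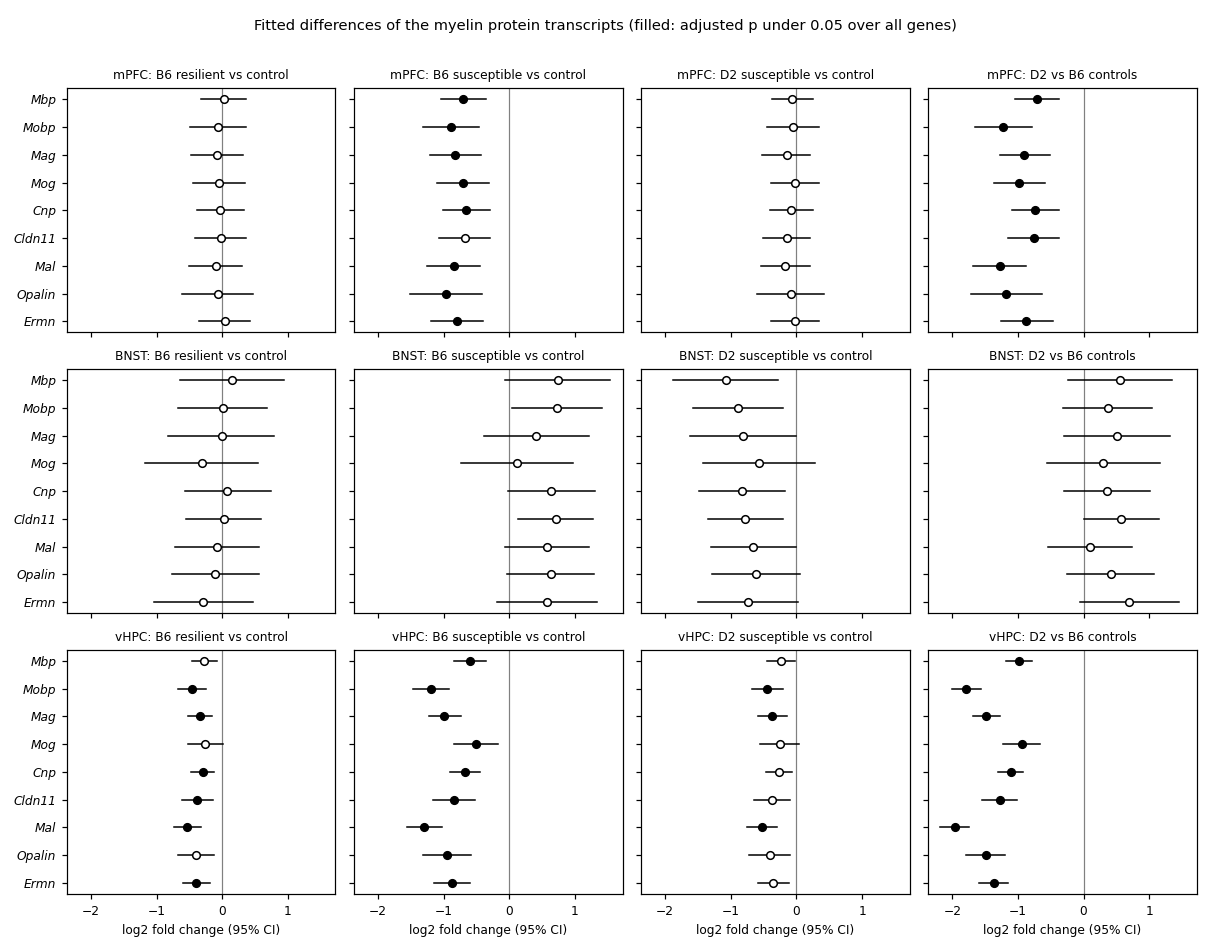
Fitted log2 fold changes with 95% confidence intervals for the 9 genes in 4 comparisons (columns) and 3 regions (rows), with filled points for an adjusted p under 0.05 over all genes of the region. The mPFC and vHPC differences of susceptible B6 mice and of D2 controls are negative, the BNST ones are positive and open, and susceptible D2 mice are near 0 in the mPFC.

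In the vHPC, 1 property of the libraries has to be stated before the results. From BNST controls 88 genes with a strain difference over 3 on the log2 scale were chosen that were also in the vHPC table, and each library was placed on the axis from B6 controls (0) to D2 controls (1) by these genes. B6 control libraries lay at −0.025 to 0.0284, but B6 resilient ones at 0.289 to 0.364, B6 susceptible ones at 0.437 to 0.499 and D2 susceptible ones at 1.16 to 1.27, against 0.947 to 1.07 for D2 controls. In the mPFC and BNST every group stayed near the controls of its strain, at −0.0509 to 0.0836 for B6 and 0.899 to 1.11 for D2. At these genes the vHPC values of defeated B6 mice thus lay part of the way from B6 to D2 controls, the direction in which the 9 myelin genes also differed between the strains. The deposited vHPC values had been adjusted by the authors for library and sequencing sets, control and defeated B6 mice shared no library set, and the source of this shift was not tested. The vHPC differences within a strain are therefore given with the axis as a covariate too, an alternative chosen after the data had been seen. Positions on the axis did not overlap between the groups of a strain, so this covariate nearly follows phenotype. A loss of calls with it does not tell axis and phenotype apart.

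Susceptible B6 mice had lower levels of all 9 genes in the vHPC. Mal was at 8.08 to 8.26 log2 CPM in the 6 controls (mean 8.16, SD 0.08) and at 6.88, 6.94 and 6.78 in the 3 susceptible mice, a difference of −1.30 (SE 0.13, adjusted p = 3.72e-08). Mobp was at 9.29 to 9.54 (median 9.36) and at 8.18, 8.30 and 8.13, a difference of −1.19 (SE 0.13, adjusted p = 2.58e-07). Mbp was at 9.99 or more in controls (median 10.09) and at 9.45, 9.62 and 9.44, a difference of −0.60 (SE 0.12, adjusted p = 0.000447). In these genes, as in all 9, every susceptible mouse lay below every control. Mag differed by −0.99, Opalin by −0.95, Ermn by −0.87, Cldn11 by −0.84, Cnp by −0.68 and Mog by −0.51, with a highest adjusted p of 0.0175 in Mog. These 9 calls stood beside 20.1% of all genes called lower, and the 9 genes without overlap beside 37.7% of all genes. With the strain axis as a covariate 0 genes were called by limma, the median was −0.36 (median SE 0.50) against −0.87, and Mbp (0.02) and Mog (0.04) turned positive. Choroid plexus markers, from the ventricle beside the hippocampus, summed to 38.4 to 2110 CPM in control and 24.3 to 80 CPM in susceptible B6 mice, and their part was not tested. Of the 25 other mature OLG genes 16 were called lower (median −0.53), among them Aspa (−0.91), Gjb1 (−0.79) and Gjc3 (−0.54), while the 12 precursor genes had a median of −0.09, with 3 called lower and 1 higher. Other cell types moved as well: endothelial markers had a median of −0.51 (4 of 7 called lower), microglia markers of −0.14 (5 of 8 lower), astrocyte markers of −0.18 (3 of 8 lower, 1 higher) and general neuron markers of 0.36 (5 of 8 higher, 1 lower). Their part in the result was not tested. No library set held both control and susceptible B6 mice, so library set and phenotype cannot be told apart here. Within ID prefixes C1 and C2 the medians of the 9 genes were −0.82 and −0.99.

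Resilient B6 mice lay between controls and susceptible mice. Mal was at 7.34 to 7.96 log2 CPM in the 8 resilient mice (median 7.58), below all controls, a difference of −0.53 (SE 0.10, adjusted p = 0.00057). Mobp was at 8.70 to 9.29 (median 8.90), a difference of −0.46 (SE 0.10, adjusted p = 0.00314), and Mbp at 9.59 or more (median 9.79), a difference of −0.27 (SE 0.09, adjusted p = 0.0563). Resilient replicate 4, the 1 resilient library sequenced in the same set as the controls, was the highest of its group for all 9 genes. Called lower were 6 genes, Mobp, Mag, Cnp, Cldn11, Mal and Ermn, with 5.9% of all genes called lower, and 3 did not overlap with controls, Mobp, Mag and Mal, where 3.13% of all genes did not. With the strain axis as a covariate 0 were called by limma, and 0 with the sequencing set as a covariate. Both covariates nearly follow these groups, so a loss of calls with them does not tell covariate and phenotype apart. Against resilient mice, susceptible B6 mice were lower in all 9 genes (median −0.47), 8 of them called, all but Mog, where 27.6% of all genes were called in either direction. For 6 genes, Mobp, Mag, Cnp, Cldn11, Mal and Ermn, these groups did not overlap, as for 13.3% of all genes. With the strain axis in the model 2 were called. The median was −0.39 within library set 1, the 1 set with both groups, and 0 genes were called with the library set in the model.

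Susceptible D2 mice were lower than D2 controls by a median of −0.37. Mal was at 5.96 to 6.66 log2 CPM in the 6 controls (median 6.10) and at 5.7, 5.56, 5.69, 5.57 and 5.89 in the susceptible mice, which all lay below the controls, a difference of −0.52 (SE 0.11, adjusted p = 0.00484). Mobp (−0.45, adjusted p = 0.0221) and Mag (−0.37, adjusted p = 0.0397) were also called, and the other 6 genes, from −0.23 in Mbp to −0.41 in Opalin, were not. These 3 calls stood beside 2.74% of all genes called lower, and Mal was the 1 gene of the 9 without overlap, where 4.98% of all genes had none. With the strain axis in the model 0 were called by limma, and the count was 1 without susceptible replicate 2 or 4. The median was 0.09 within library set 8, the 1 set with both groups, which held 1 mouse of each.

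By the interaction test in limma, the drop was larger in B6 than in D2 mice for 2 genes. The D2 change minus the B6 change was 0.78 in Mal (SE 0.17, adjusted p = 0.0242) and 0.75 in Mobp (SE 0.18, adjusted p = 0.0419), the 2 of 9 called, where 0.557% of all genes were called in this direction. It was positive for all 9 genes, with a median of 0.52. With the strain axis in the model 0 were called, as with the library set in the model, and the count ranged from 0 to 3 without a single mouse. The B6 change rests on 3 susceptible mice that shared no library set with controls. In D2 mice 1 set held both groups, with 1 mouse of each. Strain, phenotype and library set can therefore not be told apart here.

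Between undefeated mice, D2 had less of all 9 transcripts in the vHPC. Mal was at 5.96 to 6.66 log2 CPM in D2 against 8.08 to 8.26 in B6 controls, a difference of −1.96 (SE 0.10, adjusted p = 1.9e-14), and Mobp at 7.36 to 8.13 against 9.29 to 9.54, a difference of −1.79 (SE 0.11, adjusted p = 2.78e-13). Mag and Opalin differed by −1.49, Ermn by −1.37, Cldn11 by −1.28, Cnp by −1.11, Mbp by −0.98 and Mog by −0.94, with a highest adjusted p of 1.65e-06 in Mog. All 9 were called lower where 29.1% of all genes were, and no gene of the 9 overlapped between the strains, as for 36.7% of all genes. No library set or ID prefix held controls of both strains, so neither can be told apart from strain here. Of the 25 other mature OLG genes 24 were called lower and 1, Car2, higher (0.59, adjusted p = 1.67e-06). Mal and Mobp had the lowest estimates of the 9 genes in both the mPFC and the vHPC strain comparison. Choroid plexus markers were lower in D2 controls as well (median −2.93, 5 of 5 called), at 22.5 to 534 CPM against 38.4 to 2110 CPM, and so were endothelial markers (median −0.56, 6 of 7 called lower). Their part was not tested.

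Among mice of the same group the 9 genes varied together. Each gene was set against every other gene of a region in a model with the group means, and a pair was called at a p adjusted over all genes under 0.05. In the mPFC all 72 ordered pairs of the 9 genes were called, where 1.93% of all pairs of a member and another gene were. Pearson's r of the group-centred levels ran from 0.778 (Cnp and Opalin) to 0.972 (Mag and Cnp), with a median of 0.912, and Spearman's rho from 0.819 to 0.977. Over the other genes the 95th percentile of r was 0.429. Each of the 36 mPFC pairs had the smallest p that 100000 permutations of mice within groups can give, 1e-05, for both coefficients, and without the 2 mice farthest from the median of the first gene r was still 0.79 or more. Mice of the same group differed in ID prefix, which neither the model nor the permutations took into account in any region. Its part in the co-variation was not tested.

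In the BNST 67 of the 72 ordered pairs were called, but so were 23.1% of all pairs, and the 95th percentile of r over all genes was 0.688. The r values split the genes. Mbp, Mag and Cnp varied closely with each other (r of 0.973 for Mag and Cnp, permutation p = 1e-05, the smallest possible), and so did Mal and Ermn (r = 0.952, permutation p = 1e-05), while r between these sets was 0.463 to 0.549, lowest for Mag and Ermn (Spearman's rho 0.616, permutation p = 0.0458 for r and 0.00181 for rho). In D2 control 2, Mag was at 5.92, Cnp at 7.10 and Mbp at 9.76 log2 CPM, each the lowest of the D2 controls, with Ermn at 7.36 and Mal at 8.06, above the group mean. B6 susceptible mouse 3 had the reverse, the highest Mbp of its group (12.11) with the lowest Ermn (5.85) and Mal (7.28). Without these 2 libraries, a choice made after the data had been seen, r of Mag and Ermn was 0.865 and the 36 pairs ran from 0.75 to 0.973 (median 0.914, against 0.843 with all 28 mice). Both libraries stayed in the tests above.

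**Figure D4:**
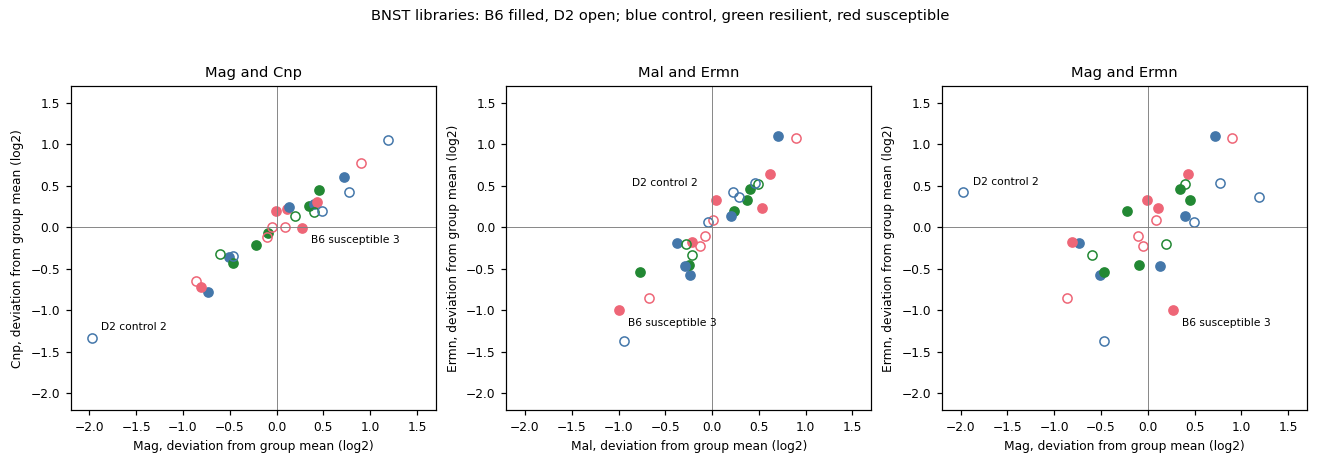
Deviation from the group mean (log2 CPM) of each of the 28 BNST libraries for Mag against Cnp, Mal against Ermn and Mag against Ermn, filled for B6 and open for D2, blue for control, green for resilient and red for susceptible. D2 control 2 and B6 susceptible mouse 3 follow the others in the first 2 panels and stand off the diagonal in the last, at deviations of −1.97 and 0.27 in Mag and of 0.42 and −1.0 in Ermn.

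In the vHPC 69 of the 72 ordered pairs were called, where 2.57% of all pairs were, and r ran from 0.558 (Mbp and Opalin, Spearman's rho 0.446, permutation p = 0.0106 for r and 0.0359 for rho) to 0.957 (Mobp and Mal), with a median of 0.813. Opalin was the least tied, called with 5 of the other 8 genes. When library set was added to that model, 28 of 72 were called, where 0.178% of all pairs were. Within groups the median r over pairs was 0.977 in D2 controls, 0.868 in susceptible D2 mice and 0.774 in resilient B6 mice, but 0.392 in B6 controls, whose range began at −0.583. Levels in those 6 mice spanned little, with an SD of 0.06 to 0.24 in the 9 genes. In the mPFC the group medians were 0.873 to 0.978 and in the BNST 0.748 to 0.981, over 5 to 8 mice a group. The within-group SD of the 9 genes had a median of 0.342 in the mPFC against 0.151 over all genes, 0.568 against 0.42 in the BNST and 0.192 against 0.141 in the vHPC. In all, 108 pairs were tested over the 3 regions.

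**Figure D5:**
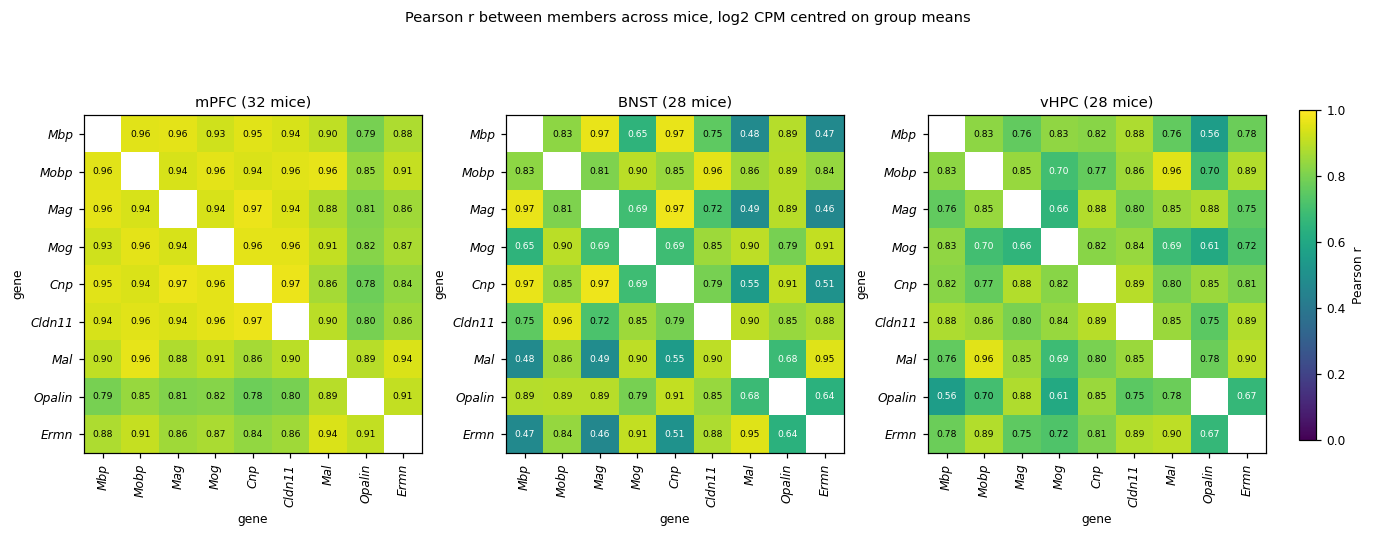
Pearson r between each pair of the 9 genes across mice, from log2 CPM centred on group means, in the mPFC, BNST and vHPC. Values are 0.778 to 0.972 in the mPFC, and the lowest BNST values join Mal and Ermn with Mbp, Mag and Cnp, at 0.463 to 0.549.

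The genes whose levels were most like each member's among mice were found over the 13388 genes present in all 3 regions, by the mean of the 3 r values. For Mbp these were Plekhb1 (0.873), Adamts4 (0.871) and Cntn2 (0.871), and for Mobp Adamts4 (0.87), Hapln2 (0.869) and Plekhb1 (0.869). For Mag they were Ttyh2 (0.915), Csrp1 (0.899) and Pllp (0.886), and for Cnp Ttyh2 (0.897), Plxnb3 (0.874) and Csrp1 (0.873). Mag and Cnp thus had a pair of neighbours in common. For Mog they were Tmem88b (0.907), Plekhh1 (0.894) and Ugt8a (0.887), the last the enzyme that makes the galactolipid of myelin. For Cldn11 Slain1 (0.905) and Plekhh1 (0.896) were named, for Mal Ugt8a (0.881) and Plekhh1 (0.837), and for Ermn Ugt8a (0.908) and Gatm (0.882). For Opalin they were Sept4 (0.872), Gpr37 (0.849) and Ttyh2 (0.841). Ugt8a, Hapln2, Pllp, Plekhb1, Gpr37 and Tmem88b were also in the list of other mature OLG genes.

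For the 7 mice with both an mPFC and a vHPC library, the deviation of the 9-gene mean from the group mean had the same sign in both regions in 4 mice. Whether a mouse high in 1 region tends to be high in the other cannot be told from so few mice and was not tested. Of the 2 B6 controls among these mice, one was at 0.41 in the mPFC and 0.10 in the vHPC, and the other at −0.35 and 0.09. Parts of some exons are shared with other genes, 154 bases of Cnp with Dnajc7 and 237 bases of Ermn with Galnt5 on the opposite strand and 79 bases of Mobp with Gm38642 on the same strand. Reads in these bases could not be assigned with certainty.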

How the data were processed

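RNA-seq was analysed in 32 mPFC, 28 BNST and 28 vHPC libraries, grouped by the strain and phenotype in the labels. According to the study's methods, adapters were trimmed, PCR duplicates were removed with PRINSEQ, reads were aligned to GRCm38 with STAR and exon reads were counted with HTSeq. The kits were Ribo-Zero with ScriptSeq in the mPFC, Ribo-Zero with Nextera in the vHPC and InDA-C with Ovation in the BNST. The mPFC and vHPC tables were deposited as log2 CPM, for which the authors had kept genes with at least 1 CPM in 6 libraries, applied voom and removed library sets (and, in the vHPC, sequencing sets) with ComBat. Such values treat the removed batch as known without error, and they hold no counts, so no depth behind single values is given for these regions. The BNST table was deposited as raw counts per gene. Its libraries held 11825757 to 25793910 reads.

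Here, gene symbols were matched through GENCODE M21 for 99.54% of mPFC, 99.09% of BNST and 99.58% of vHPC genes. The log2 CPM values were fitted with limma 3.58.1. The counts were filtered at 1 CPM in 6 libraries, which left 17515 genes, scaled by TMM (factors 0.656 to 1.27) and fitted with edgeR 4.0.16's quasi-likelihood test (R 4.3.3), with log2 CPM at a prior count of 0.5 for display. All groups of a region shared 1 fit, tests were two-sided, and p-values were adjusted over all genes of the region at a threshold of 0.05. Co-variation was tested in the same way with a gene's level added to the group means, and pairs by 100000 permutations of mice within groups. The scripts were tested on simulated data. DESeq2 1.42.0, sva 3.50.0 and the other alternatives are given with the closing values. The text names the 9 genes, the 3 genes outside this set most like each of them and at most the first 4 genes of a marker list. Any other gene is said to be chosen after its value was seen. Some genes selected by this rule are not reported here. The genes, lists and alternatives were chosen with earlier results of these data known.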

Additional observations from a re-analysis of the deposited data

Results flagged for a closer look

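Dixon's criterion was applied to 126 combinations of a gene and a group of 4 to 10 mice. In 1 combination a library lay apart from the rest of its group. The same mice recur in these combinations, for genes that vary together, so the combinations are not independent tests. The count therefore cannot be weighed against the 1 in 20 that chance would give in independent tests. In the BNST, Ermn was at 5.57 log2 CPM in D2 control replicate 1, and the other 4 controls were at 7.00 to 7.47. Mobp (8.43), Mog (4.5), Cldn11 (7.07) and Mal (6.9) were also lowest of the D2 controls in this mouse. Mbp, Mag, Cnp and Opalin were not.

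The change in susceptible mice differed between the strains in the vHPC for 2 genes by the interaction test in limma. The D2 change minus the B6 change was 0.75 in Mobp (SE 0.18, adjusted p = 0.0419) and 0.78 in Mal (SE 0.17, adjusted p = 0.0242) on the log2 scale. Neither was called with the position on the strain axis in the model or with the library set in the model.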

How the results depend on the processing

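For single genes past the threshold as reported, 852 values under an alternative kept their direction and side of the threshold, 277 kept only the direction and 7 changed sign. Counts of the 9 genes called stayed within 1.5 times in 316 cases and moved in 67. In the mPFC, susceptible against control and against resilient B6 mice each gave 0 genes with the library set in the model, 0 with the ID prefix and 0 in a fit of the groups compared alone, and the second gave 9 with a trended prior. For the BNST interaction DESeq2 called 3, a count given without the share of all genes it called. In the vHPC, the library set left 2 genes for susceptible and 0 for resilient B6 against control, 0 for D2, 0 for susceptible against resilient, 0 for the interaction and 28 of the co-varying pairs. The strain axis, chosen after seeing the data, left 0, 0, 0, 2 and 0 for these comparisons. Sequencing set 1 alone, which holds 1 resilient B6 mouse, assumed to vary like the other groups, left 0 for resilient B6, D2, susceptible against resilient and the interaction, and the sequencing set in the model 0 for resilient B6 and D2. The ID prefix left 1 for D2 and 1 for the interaction, and the groups compared alone 1 for D2 and 4 for susceptible against resilient. Among genes called against control B6 mice, Mbp (0.02) and Mog (0.04) turned positive in susceptible mice with the strain axis, and in resilient mice Cnp (0.02), Cldn11 (0.08) and Ermn (0.03) did in sequencing set 1 alone and Cldn11 (0.01) and Ermn (0.19) with the strain axis, and 4 and 5 of all 9 genes kept their sign there. The cause was not tested.

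Without 1 mouse, the count was 0 to 9 for both mPFC comparisons of susceptible B6 mice. The second was 0 without resilient replicate 2, 3 or 4 or susceptible replicate 2, 4, 5 or 6 and 2 without resilient replicate 1. In the vHPC it was 8 to 9 for susceptible and 4 to 8 for resilient B6 mice, 1 to 4 for D2, 3 to 8 for susceptible against resilient (3 without susceptible replicate 3, 4 without replicate 2) and 0 to 3 for the interaction. The other comparisons stayed at 0 or 9. No paired analysis was possible because the groups compared within a region hold different mice and replicate numbers only name samples. The ID prefix could not be fitted for strain contrasts or for resilient D2 mice in the BNST, and the strain axis was not run between controls.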
